A study of Mus musculus with 6 samples.

Results

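The protamines and transition proteins were followed here as 5 genes, Prm1, Prm2, Prm3, Tnp1 and Tnp2, which were picked by symbol from the 32285 genes of the mouse testis count matrices. Whole testes came from 6 male C57BL/6J mice, an inbred strain. The nicotine group (n = 3) had 200 µg/mL nicotine added to its water for 8 weeks, beginning at 3 weeks of age, and the control group (n = 3) had plain water under normal feeding. Both groups were 11 weeks old at sampling. The paired testes of a mouse gave 1 droplet library with 10x 3' v3 chemistry, in which a unique molecular identifier (UMI) counts 1 transcript end whatever the transcript's length. The mouse is therefore the replicate, and the members can be set against each other without a length correction.

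In late spermatogenesis the haploid round spermatid elongates and its histones are taken off the DNA. Transition proteins, encoded by Tnp1 and Tnp2, bind the DNA for a time, and protamines, encoded by Prm1 and Prm2, then replace them and pack it into the dense sperm head. The transcripts are made ahead of the proteins and are stored under translational control, and the cyclic AMP response factor Crem is a known activator of these genes in the mouse. Prm3, which lies between Tnp2 and Prm2 on the chromosome, codes for an acidic protein reported from the spermatid cytoplasm, and it is a protamine by locus and name more than by chemistry.

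On GRCm38, the files' build, all 5 genes were annotated on the minus strand. Tnp1 spans chr1:73015074-73015899 in 2 exons (GENCODE vM21). The other 4 lie within 8889 bases of chromosome 16, with Tnp2 at chr16:10787935-10788655, Prm3 at chr16:10790508-10790914, Prm2 at chr16:10791377-10792105 and Prm1 at chr16:10796332-10796823. The 150 bases before each annotated start are printed 5′ to 3′ from RefSeq (GRCm38.p6), since the members are all spermatid genes but did not rise or fall in step. Capitals mark matches to TGANNTCA, a loose form of the cyclic AMP response element that reads the same on both strands, and to TATAA or TATATA on either strand, which overlap where both are present.
Tnp1: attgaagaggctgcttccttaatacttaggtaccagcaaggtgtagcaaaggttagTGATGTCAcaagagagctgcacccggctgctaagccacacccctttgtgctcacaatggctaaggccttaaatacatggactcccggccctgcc
Tnp2: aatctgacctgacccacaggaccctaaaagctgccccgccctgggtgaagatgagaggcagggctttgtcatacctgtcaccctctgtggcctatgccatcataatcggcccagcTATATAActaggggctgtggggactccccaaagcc
Prm3: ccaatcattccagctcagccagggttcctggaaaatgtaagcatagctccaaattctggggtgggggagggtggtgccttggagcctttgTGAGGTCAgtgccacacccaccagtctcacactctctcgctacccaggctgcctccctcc
Prm2: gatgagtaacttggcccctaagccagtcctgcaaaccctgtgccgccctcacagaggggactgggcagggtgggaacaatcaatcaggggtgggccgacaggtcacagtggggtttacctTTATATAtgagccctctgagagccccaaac
Prm1: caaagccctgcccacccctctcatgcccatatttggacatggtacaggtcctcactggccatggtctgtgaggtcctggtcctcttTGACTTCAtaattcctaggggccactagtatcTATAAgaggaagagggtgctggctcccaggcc
The windows are chr1:73015900-73016049 for Tnp1, chr16:10788656-10788805 for Tnp2, chr16:10790915-10791064 for Prm3, chr16:10792106-10792255 for Prm2 and chr16:10796824-10796973 for Prm1. TGANNTCA was found in Tnp1 (first base 94 before the start), Prm1 (64 before) and Prm3 (60 before). Of all 32851 mouse promoter windows of this length, 8.37% held it. A TATAA or TATATA match was found in Tnp2, Prm1 and Prm2, with first bases 29 to 35 before the start, and in 15.0% of all windows. Prm1 alone of the 5 held both kinds of match. These are matches of letters in the reference, not measured binding sites.

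The nicotine libraries held 67853893 to 73596886 UMIs and the control libraries 75923816 to 88329607, so depth did not overlap between the groups. After filtering, 61945 barcodes were kept, with a median of 2202 to 2901 UMIs per library, and 25 to 54 barcode sequences were shared by each of the 15 pairs of libraries. The barcodes formed 23 clusters, computed with the 5 members left out, and 20 of these took a name ending in "-like" from marker genes of testis cell types. Nicotine mouse 2 and control mouse 2 stood apart from the other 4 mainly in the ratios of Prm2 to Prm1 and of Tnp2 to Tnp1, as given below. Results that rest on these 2 mice are given with and without them.

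All 5 members were abundant. Summed over the kept barcodes, Prm2 gave 8725944 UMIs, 2.08% of all UMIs, and Prm1 gave 7811430, or 1.86%. Tnp2 gave 4715935 UMIs (1.13%) and Tnp1 gave 3442440 (0.821%). Prm3 was the scarcest member, at 463416 UMIs (0.111%). The 13485 elongating spermatid-like barcodes were 21.8% of the barcodes kept and held 72.8% of Tnp1, 72.8% of Tnp2, 78.7% of Prm1 and 74.9% of Prm2 UMIs, but only 54.7% of those of Prm3. Round spermatid-like barcodes held 23.2% of the Prm3 UMIs, against 2.38% to 4.74% for the other members. Low-UMI elongating spermatid-like barcodes, a class named from the same marker list at lower depth, held 8.05% of the Prm2 UMIs and 0.453% to 0.715% of those of the others. Its clusters passed 5 and 8 of those markers, against 7 to 11 in the elongating spermatid-like clusters. The distribution over spermatid classes thus set Prm3 on the early side and Prm2 on the late side. Annotated antisense genes overlap Tnp1 and Prm1 and could share reads with them if strand was ignored in counting, for which the sources used here give no setting. They are 1700027A15Rik over Tnp1, with 485700 UMIs, and Gm46563 over Prm1, with 6877 UMIs.

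The order of rise was read along a germ-cell order of 44247 barcodes, from 0% at early spermatocyte-like to 100% at late elongating spermatid-like cells. It was built by diffusion pseudotime, which arranges cells by likeness of expression, with the members left out. A level is given as UMIs of the gene per 10000 UMIs of all non-member genes. Tnp2, a transition protein gene, reached 50% of its own maximum at 53.9% ± 0.208 of the order (SD, n = 6 mice). Tnp1 reached it at 54.9% ± 0.134 and Prm3 at 55.0% ± 0.504. Prm1, the protamine that mammals share most widely, followed at 55.5% ± 0.0884. Prm2, whose protein is made as a precursor and trimmed on the DNA, came last at 64.5% ± 1.12. The first 4 members therefore reached 50% of their maxima within a short stretch, and Prm2 did so clearly later. Of the 10 pairs of members, 8 had a gap of the same sign in 6 of 6 mice, each with p = 0.0313 in a two-sided exact sign-flip permutation test, the smallest 6 mice allow (0.0391 after Benjamini-Hochberg adjustment over 10 pairs). The gap from Prm1 to Prm2 was 8.98 ± 1.12 points of the order, earlier for Prm1 in 6 of 6 mice. Tnp1 followed Tnp2 by 1.00 ± 0.238 points in 6 of 6 mice. The spread over mice did not separate Tnp1 from Prm3 (exact sign-flip permutation p = 0.719) or Prm1 from Prm3 (p = 0.125, adjusted 0.139).

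**Figure D1:**
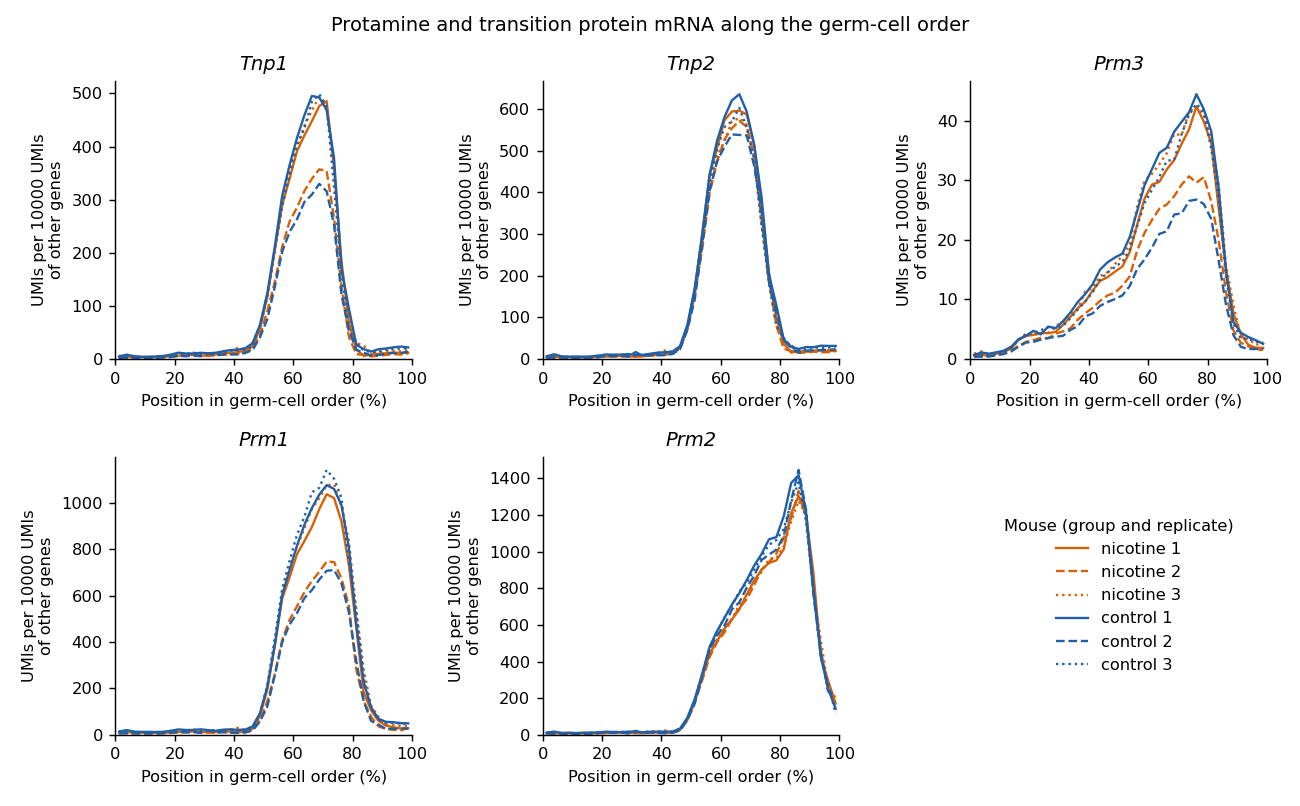
Level of each member (UMIs per 10000 UMIs of non-member genes) along the germ-cell order in percent, by mouse, with nicotine mice in orange and control mice in blue and the mice numbered 2 drawn dashed. The Prm2 curve peaks to the right of the other 4 in each mouse, at 86.25% of the order.

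The fall of the transcripts separated the members more widely than the rise. After its peak, Tnp2 was back at 50% of its maximum at 74.6% ± 0.335 of the order and Tnp1 at 75.3% ± 0.200. Prm1 reached that point at 80.8% ± 0.277, Prm3 at 84.9% ± 0.201 and Prm2 at 92.1% ± 0.407. All 10 pairs kept 1 sign of the gap in 6 of 6 mice (exact sign-flip permutation, adjusted p = 0.0313 for each pair). Thus the transition protein transcripts left first, Prm1 next, and Prm2 last, with Prm3 between the 2 protamines. The peaks lay at 65.8% ± 1.02 for Tnp2, 68.75% ± 1.58 for Tnp1, 72.1% ± 1.29 for Prm1 and 75.8% ± 1.02 for Prm3. Prm2 peaked at 86.25% in all 6 mice. Where the 5 transcripts together were most abundant, at 71.25% of the order, they made up 21.9% of the UMIs.

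**Figure D2:**
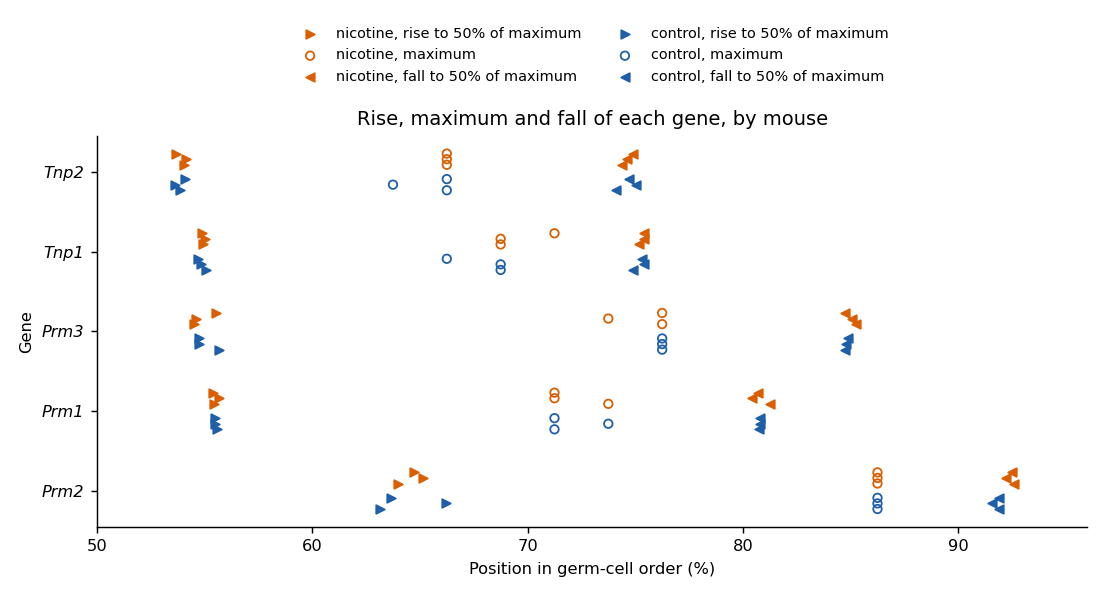
Position along the germ-cell order, in percent, at which each member reached 50% of its maximum, peaked and fell back to 50%, with 1 point per mouse, nicotine in orange above control in blue. The fall spreads the members from 74.6% for Tnp2 to 92.1% for Prm2, while 4 of the 5 rises lie between 53.9% and 55.5%.

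Prm3 had a long low shoulder before the steep part of the curve. It was at a level of 1.17 ± 0.184 at 11.25% of the order and at 10.6 ± 1.97 at 41.25%, where the other 4 members stood at 13.7 to 16.6. Prm3 therefore passed 10% of its own maximum at 20.6% ± 1.77 of the order. The other 4 passed that mark between 47.9% for Tnp1 and 50.1% for Prm2. At this mark Tnp1 (47.9%) and Tnp2 (47.9%) were not separated, with the mice split 3 to 3 (exact sign-flip permutation p = 0.594). Depth changed along the order beside these results. The median number of non-member UMIs per barcode was 15825 at 13.75% of the order, 1585 at 18.75%, where low-UMI early spermatocyte-like barcodes lay among the round spermatid-like ones, and 15883 at 48.75%. Without those low-UMI clusters, which left 39157 barcodes, Prm3 passed 10% at 18.1% ± 0.313 and the other 4 between 41.4% for Tnp1 and 43.6% for Prm2. The order of the 50% positions was the same there, and 8 of 10 pairs had 1 sign in 6 of 6 mice in both settings.

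How late Prm2 appears depends on the scale. Per barcode, not divided by other UMIs, Prm2 reached 50% of its maximum at 50.8% of the order, ahead of Prm1 at 51.5%, and Prm3 came first at 41.0%. Tnp1, at 50.7%, and Tnp2, at 50.8%, stood in the other order on that scale. On that scale 7 of 10 pairs kept 1 sign. The highest values per barcode were 449 UMIs for Tnp2 at 58.75% of the order, 309 for Tnp1, 627 for Prm1 and 518 for Prm2, each of these 3 at 66.25%, and 26.1 for Prm3 at 53.75%. Over the same stretch the median of other UMIs fell to 6136 at 68.75% and to 1353 at 98.75%. So Prm2 molecules per barcode rose alongside those of Tnp1, Tnp2 and Prm1, with Prm3 earlier. At 83.75% of the order Prm2 still stood at 437 UMIs per barcode and Prm1 at 70.9, with a median of 3142 other UMIs. What made the rise of the Prm2 level later was not tested. Ordering barcodes by a marker score, or using clusters in place of bins, put Prm3 first and left Tnp2, Tnp1, Prm1 and Prm2 in the order given above.

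The maximum level of each member varied more between mice than between groups, except for Prm2. Tnp1 peaked at 486, 357 and 494 in the nicotine mice and at 495, 330 and 499 in the control mice. Prm1 peaked at 1037, 747 and 1080 in the nicotine mice and at 1077, 711 and 1142 in the control mice. Both genes were lowest in mouse 2 of each group, and so was Prm3, at 30.7 in nicotine mouse 2 and 26.8 in control mouse 2, against 42.3 to 44.4 in the other 4 mice. For Tnp2 the maxima were 596, 571 and 578 in the nicotine mice and 635, 539 and 603 in the control mice, which overlap. The Prm2 maximum was 1303, 1331 and 1277 in the nicotine mice and 1418, 1446 and 1379 in the control mice. These Prm2 values did not overlap, with means of 1304 ± 26.9 and 1414 ± 33.9, and the two-sided exact permutation p was 0.1, the smallest that 3 against 3 can give (0.5 after adjustment over the 5 members). The 50% fall of Prm2 likewise came at 92.4% ± 0.203 of the order in the nicotine mice and 91.8% ± 0.187 in the control mice, without overlap (exact permutation p = 0.1, adjusted 0.5). The 50% rises of all 5 members overlapped between the groups, with exact permutation p from 0.5 to 0.9.

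Ratios between members describe a class with no scaling at all. Prm2 and Prm1 were near 1 to 1 in round spermatid-like barcodes, with a ratio of 0.970 ± 0.134 (SD, n = 6 mice), and 1.12 ± 0.248 in elongating spermatid-like barcodes. In the low-UMI elongating spermatid-like class it was 18.2 ± 6.63, with a range of 11.1 to 26.8, above the elongating class in 6 of 6 mice. That class had 2 clusters, and the ratio was 28.0 ± 7.86 in the one with Tssk6 and Spem2 among its leading genes and 1.59 ± 0.398 in the other. In the cluster with Tssk6, Prm2 thus remained where Prm1 had largely gone, with medians of 154 and 6 UMIs per barcode. In the other cluster, with 3469 of the 6701 barcodes of the class, Prm2 was low as well, at a median of 6. The ratio of Prm3 to Prm2 ran the other way, at 0.517 ± 0.0486 in round spermatid-like, 0.0678 ± 0.0102 in the joint round and elongating class, 0.0381 ± 0.00698 in elongating and 0.00473 ± 0.00112 in low-UMI elongating barcodes. Tnp2 exceeded Tnp1 by a ratio of 1.42 ± 0.224 in elongating spermatid-like barcodes and was close to it, at 1.05 ± 0.118, in round ones. The round ratios rest partly on low levels, taken here over UMIs of all genes. In 1 round cluster Prm1 and Prm2 stood at 8.28 and 7.10, and in another at 8.27 and 7.26. Leydig-like barcodes, which should lack them, stood at 15.2 and 14.3. Tnp1 and Tnp2 were also under their Leydig-like levels in those 2 clusters. The remaining round cluster was above for all of these, with Prm1 at 19.3 and Prm2 at 19.5. How far RNA from other cells entered the round ratios was not tested.

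**Figure D3:**
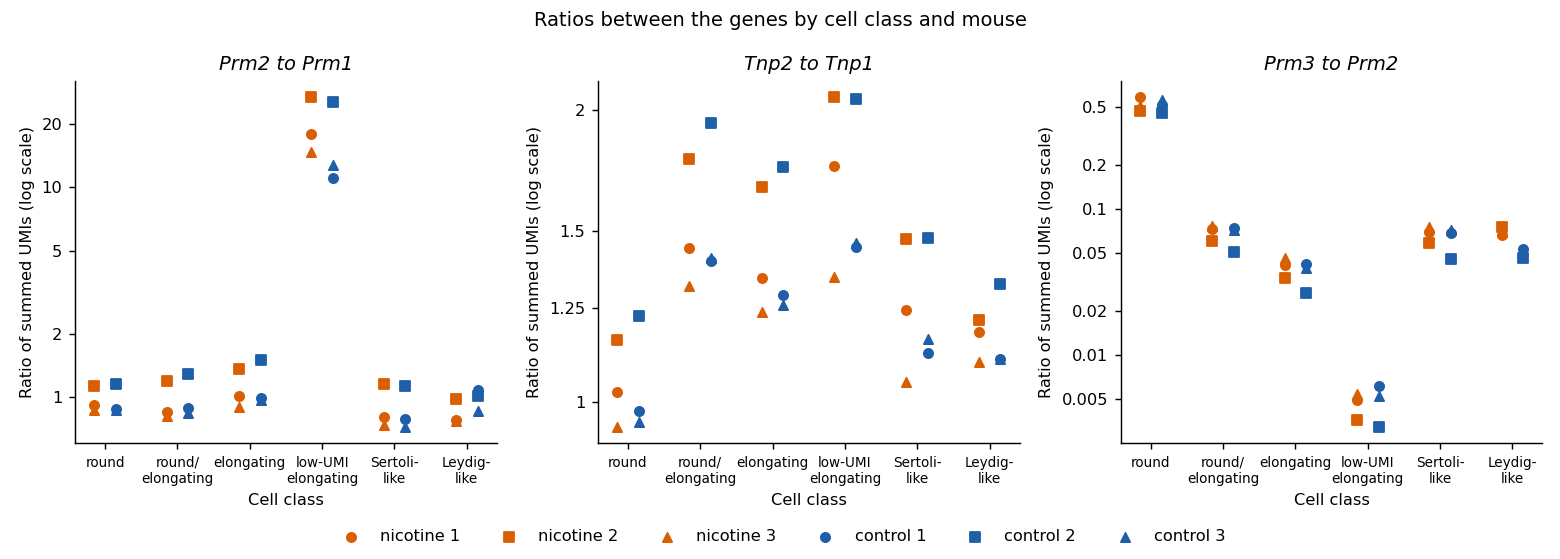
Ratio of Prm2 to Prm1, Tnp2 to Tnp1 and Prm3 to Prm2 UMIs by class (log axis), 1 point per mouse, nicotine mice in orange left of control mice in blue, with the mice numbered 2 as squares. The Prm2 to Prm1 ratio of the low-UMI elongating class lies between 11.1 and 26.8, and the squares lie above the other mice in the elongating class, at 1.36 and 1.51.

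Mouse 2 of each group had the highest ratios of Prm2 to Prm1 and of Tnp2 to Tnp1. Over the elongating and low-UMI elongating classes, Prm2 over Prm1 was 1.13, 1.51 and 0.977 in the nicotine mice and 1.07, 1.72 and 1.06 in the control mice. Tnp2 over Tnp1 was 1.34, 1.67 and 1.24 in the nicotine mice and 1.29, 1.75 and 1.26 in the control mice. Both mice numbered 2 lay outside the range of the other 4 in 11 of 12 classes for either ratio, somatic classes included. For Prm3 to Prm2 this was so in 7 of 12 classes and for Tnp1 to Prm1 in 4 of 12. Over the elongating and low-UMI elongating classes, Prm3 to Prm2 was lowest in these mice, at 0.0303 (nicotine) and 0.0235 (control). What set these 2 libraries apart was not tested. Between the groups, the log2 ratio of Prm2 to Prm1 differed by -0.07 (nicotine minus control, exact permutation p = 0.7, adjusted 0.9 over 4 ratios), and by -0.02 without the mice numbered 2. The differences were -0.01 for Tnp2 to Tnp1 (p = 0.9, exact permutation), 0.05 for Tnp1 to Prm1 (p = 0.4) and 0.18 for Prm3 to Prm2 (p = 0.6), each 0.9 after adjustment, and all 4 ratios overlapped between the groups.

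UMIs of the 5 members were also present in cells that should lack them. Leydig cells make androgens between the tubules and macrophages are immune cells, and neither is known to use protamines. Levels in this paragraph and the next are per 10000 UMIs of all genes, members included, unlike those along the order. The 5 members together stood at 43.6 ± 14.6 in Leydig-like barcodes and at 67.8 ± 20.6 in macrophage-like ones (SD, n = 6 mice). In elongating spermatid-like barcodes they stood at 1818 ± 156. Stromal-like barcodes held 80.9 ± 28.0 and Sertoli-like barcodes, the nurse cells of the tubule, 179.7 ± 54.5. In UMIs per barcode the order was different. There were 29.6 ± 13.5 in Leydig-like, 16.6 ± 5.91 in macrophage-like, 15.2 ± 6.12 in stromal-like and 19.3 ± 6.78 in Sertoli-like barcodes. Their median depths were 6912, 2404, 1725 and 947 UMIs in the same sequence of classes. Among these classes, those with fewer UMIs of their own thus showed higher levels, while the numbers per barcode ran from 15.2 to 29.6. Early spermatocyte-like barcodes, with a median depth of 5675 UMIs, held 35.5 ± 13.1 per barcode. Every Leydig-like and Sertoli-like barcode carried at least 1 member UMI. Thinned to 500 UMIs per barcode, 81.6% ± 7.17 of Leydig-like and 99.5% ± 0.368 of Sertoli-like barcodes still did, against 100% of elongating spermatid-like ones.

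In Leydig-like and Sertoli-like barcodes, as in elongating spermatid-like ones, Prm1 and Prm2 made up most of these UMIs, followed by Tnp2, Tnp1 and Prm3. In Leydig-like barcodes they were 34.9% Prm1, 31.6% Prm2, 17.0% Tnp2, 14.5% Tnp1 and 1.90% Prm3. In Sertoli-like barcodes they were 34.7% Prm1, 30.3% Prm2, 18.3% Tnp2, 14.8% Tnp1 and 1.94% Prm3. Elongating spermatid-like barcodes gave 32.0% Prm1, 35.3% Prm2, 18.3% Tnp2, 13.0% Tnp1 and 1.32% Prm3. The makeup was not the same. Over the mice, Prm3 to Prm2 ran from 0.0462 to 0.0747 in Leydig-like and from 0.0266 to 0.0459 in elongating barcodes. In the joint round and elongating class it was 0.0678 ± 0.0102. Tnp2 over Tnp1 was 1.17 ± 0.0878 in Leydig-like and 1.42 ± 0.224 in elongating barcodes. The Prm2 to Prm1 ratio in Sertoli-like barcodes was 1.15 in nicotine mouse 2 and 1.13 in control mouse 2, above the 0.723 to 0.801 of the other 4. In Leydig-like barcodes it was 0.977 in nicotine mouse 2 and 1.01 in control mouse 2, inside the 0.767 to 1.08 of the other 4. Early spermatocyte-like barcodes had 33.5 ± 9.49 for the 5 members together, under the Leydig-like level, with a Prm3 to Prm2 ratio of 0.0605 ± 0.00992, close to that of Leydig-like barcodes at 0.0605 ± 0.0113. Round spermatid-like barcodes, at 50.1 ± 9.74, were near the same level in sum but not in makeup. There Prm3 stood at 6.22 ± 1.29, against 0.836 ± 0.315 in Leydig-like and 3.47 ± 1.08 in Sertoli-like barcodes, and the ratio of Prm3 to Prm2 of 0.517 was above the Leydig-like ratio in 6 of 6 mice. Tnp1 over Prm1 was 0.754 ± 0.0490 in round spermatid-like barcodes and 0.417 ± 0.0243 in Leydig-like ones. Both ratios were thus higher in round spermatid-like than in Leydig-like barcodes.

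**Figure D4:**
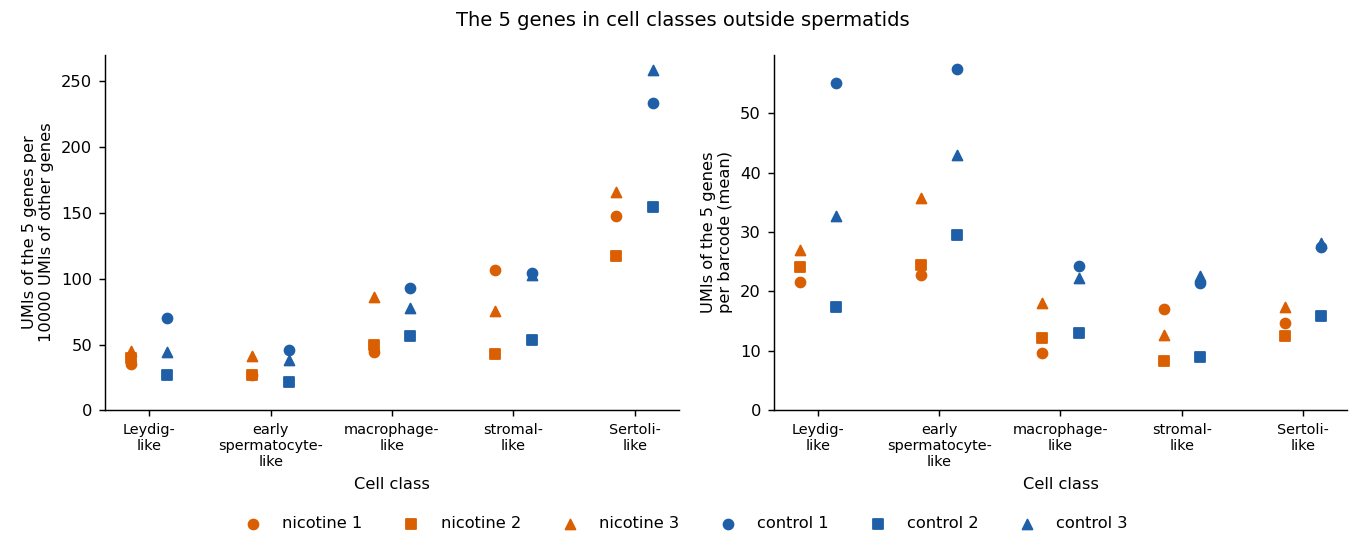
The 5 members together in classes outside the spermatids, as UMIs per 10000 UMIs of all genes, members included (left axis set, where the axis label reads other genes), and as mean UMIs per barcode (right axis set). Each point is 1 mouse, nicotine mice in orange left of control mice in blue, with the mice numbered 2 as squares. Leydig-like barcodes are lower than Sertoli-like ones as a level (43.6 and 179.7 on average) but not per barcode (29.6 and 19.3).

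Nicotine was compared with control over whole libraries first, where fewer spermatids and less RNA per spermatid cannot be told apart. None of the 5 members was called by edgeR's quasi-likelihood test at an adjusted p of 0.05, none had an unadjusted p under 0.05, and DESeq2 called 0. Of all 21998 genes tested, 0.264% were called, 0.255% lower and 0.00909% higher in nicotine. Prm2 had 19659, 18934 and 23748 CPM (counts scaled to a common library size) in the nicotine libraries and 25163, 17201 and 19832 CPM in the control libraries. Prm1 had 18457, 13103 and 25186 CPM in the nicotine libraries and 24423, 10626 and 19663 in the control libraries. Mouse 2 was the lowest of each group for both genes, and the groups overlapped. The edgeR log2 changes were 0.10 (SE 0.36) for Tnp1, 0.10 (SE 0.24) for Tnp2, 0.06 (SE 0.37) for Prm1, 0.01 (SE 0.18) for Prm2 and 0.10 (SE 0.30) for Prm3, with adjusted p from 0.989 upward. Without both mice numbered 2 they lay between -0.06 for Prm2 and 0.02 for Tnp2. The 5 members made up 6.09% ± 1.32 of the UMIs in the nicotine libraries and 5.88% ± 1.73 in the control libraries.

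Across 10 classes, 1 of 50 member tests was called by edgeR, and it was Prm2 in Sertoli-like barcodes, where 0.127% of 7893 genes were called, all 10 of them lower. Prm2 had 4247, 4228 and 4561 CPM in the nicotine mice and 6578, 5358 and 6947 CPM in the control mice. The groups did not overlap, and the log2 change was -0.56 (SE 0.10, edgeR adjusted p = 0.00698). Tnp2 in the same class had 2560 ± 366 CPM in the nicotine mice and 4001 ± 845 CPM in the control mice, also without overlap, at an edgeR adjusted p of 0.457. Sertoli-like barcodes are a class that should lack the gene, and per barcode they held 4.49 ± 0.268 Prm2 UMIs in the nicotine mice and 6.92 ± 1.26 in the control mice, with median depths of 932 and 962 UMIs. Library depth, which was lower in the nicotine mice, moved with this result, and its part in it was not tested. The call was lost when any of 5 of the 6 mice was left out (edgeR adjusted p from 0.0565 to 0.272) and among barcodes with at least 1000 UMIs, where the log2 change was -0.49 (adjusted p = 0.676). It was kept without control mouse 2 (edgeR adjusted p = 1.99e-05) and with DESeq2 (0.0146). Without both mice numbered 2, all 5 members were called lower in Sertoli-like barcodes and Tnp1, Tnp2 and Prm1 in low-UMI elongating spermatid-like ones. That setting was chosen after seeing the data, and under it 0.59% and 0.0697% of all genes were called lower in these 2 classes.

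In the spermatid classes themselves no member was called by edgeR. The share of all genes called was 0.00711% in elongating spermatid-like barcodes and 0% in round, low-UMI round, joint round and elongating, and low-UMI elongating classes. Prm2 in elongating spermatid-like barcodes had 61578, 62600 and 59328 CPM in the nicotine mice and 65959, 67257 and 65814 CPM in the control mice. The groups did not overlap, yet the log2 change of -0.18 (SE 0.10) had an edgeR adjusted p of 0.908. Prm1 had 57450 ± 10331 CPM in the nicotine mice and 59764 ± 13133 CPM in the control mice, which overlap widely. Over all classes, 7 of the 50 member tests had an unadjusted p under 0.05 in edgeR. DESeq2 called 2, and it called 0.394% of all gene tests. The 7 lay in Sertoli-like, low-UMI early spermatocyte-like and low-UMI elongating spermatid-like barcodes. Of all genes in these classes, 604 of 7893, 1692 of 12208 and 412 of 8369 had an unadjusted p under 0.05 in edgeR. In 5 of 50 the groups did not overlap, and in each of the 5 the nicotine mice were lower. Over all genes in the same 10 classes, the groups did not overlap in 13% of 110309 gene tests, and in 5.34% the nicotine mice were lower. The member tests share mice and clusters with each other, and nothing about the members is read from their count. Besides the 3 already given, these were Tnp2 in low-UMI early spermatocyte-like (1219 ± 264 and 1892 ± 387 CPM in nicotine and control mice) and Tnp2 in low-UMI elongating spermatid-like barcodes (1778 ± 197 and 2423 ± 445 CPM). The share of genes called was 0.0328% and 0% in those 2 classes, and 1.39% in early spermatocyte-like barcodes (0.467% lower and 0.927% higher in nicotine), where no member was called.

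Mice were then compared at matched stages, in 10 segments of the germ-cell order with equal numbers of barcodes. None of 50 member tests was called by edgeR or by DESeq2, which called 0.0545% of all gene tests. In edgeR 6 had an unadjusted p under 0.05, and they lay in the fourth, seventh, ninth and last segments. Of all genes in these segments, 755 of 14120, 490 of 10738, 369 of 8338 and 374 of 7142 had an unadjusted p under 0.05 in edgeR. The share of all genes called was 0.0608% in the third segment, 0.113% in the fourth, 0.012% in the ninth and 0% in the rest. Prm2 was the member with segments in a row in which the groups did not overlap. In the seventh segment it had 52441, 53452 and 52463 CPM in the nicotine mice and 57474, 57713 and 57442 CPM in the control mice. Every nicotine mouse was below every control mouse there and also in the sixth, eighth and ninth segments, with log2 changes of -0.11, -0.18, -0.17 and -0.16 from the sixth to the ninth. The edgeR adjusted p values of these 4 lay between 0.884 and 1.00, so the difference did not pass the test. Over all genes, 2.51% of the single gene tests in these 4 segments were without overlap and lower in the nicotine mice. The share of genes with 4 such segments in a row was not computed. Per 10000 non-member UMIs the sixth segment overlapped, with Prm2 at 344 in nicotine mouse 3 and 339 in control mouse 2. The log2 change had the other sign in the fifth segment (0.10) and in the last one (0.06). The lowest adjusted p, 0.125, belonged to Tnp2 in the last segment, with 1842 ± 165 CPM in the nicotine mice and 2571 ± 446 CPM in the control mice (edgeR log2 change -0.55, SE 0.12). Of the 50 member tests, these 5 were the ones without overlap. Over all genes in the 10 segments, the groups did not overlap in 11.5% of 123010 gene tests, and in 3.71% the nicotine mice were lower. Nothing about the members is read from their count here either.

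**Figure D5:**
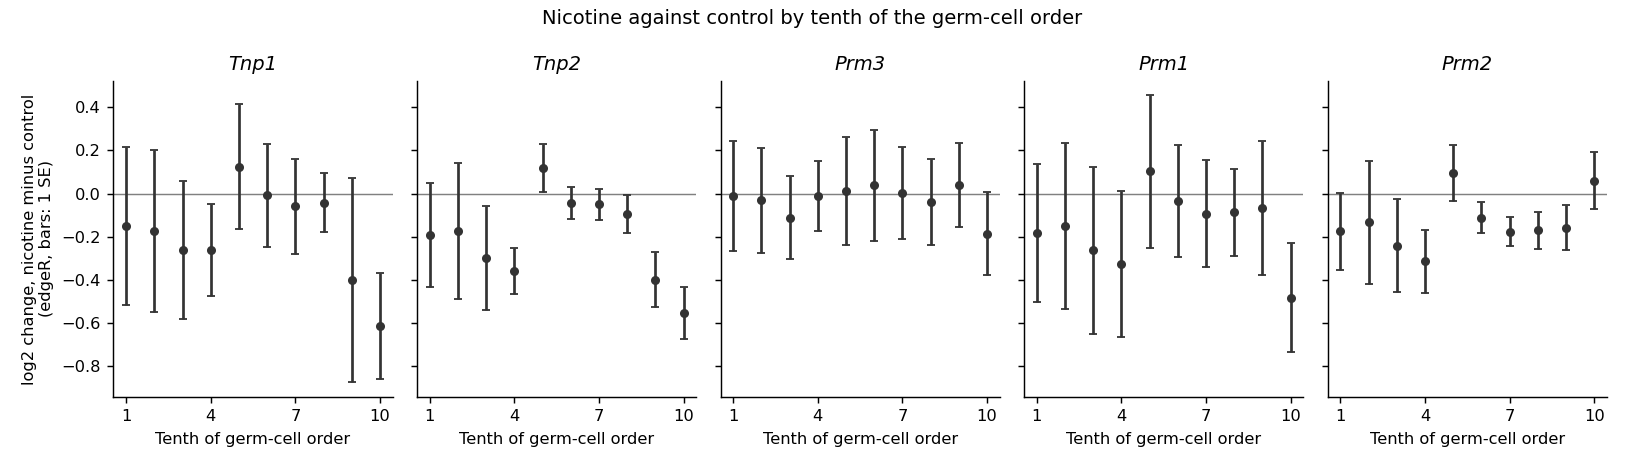
Log2 change of each member, nicotine minus control, from edgeR in 10 consecutive segments of the germ-cell order, 3 mice per group, with bars of 1 SE and a line at 0. Prm2 lies below 0 from the sixth to the ninth segment, at -0.11 to -0.18, Tnp2 lies at -0.55 in the last one, and no point passed the adjusted threshold.

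A list of 43 symbols for histone exchange and the control of protamine RNA was set beside the members, and 38 were matched in the files. Over whole libraries edgeR called 0 of the 38, with a median log2 change of 0.02, beside 0.00 over all genes. In classes and segments it called 2 list genes, both lower in Sertoli-like barcodes, where 35 were tested. These were Hmgb4, a testis high-mobility-group protein, with 328 ± 16.5 CPM in nicotine and 497 ± 65.6 CPM in control mice (log2 change -0.63, SE 0.11, edgeR adjusted p = 0.00860), and H1fnt, a spermatid linker histone, with 195 ± 14.7 CPM in nicotine and 292 ± 35.5 CPM in control mice (log2 change -0.60, SE 0.12, edgeR adjusted p = 0.0341). The median log2 change of the 35 list genes in that class was 0.03, beside 0.01 over all genes. Hmgb4 and H1fnt were both among the markers used to name elongating spermatid-like clusters, with peaks at 66.25% and 71.25% of the order. Like Prm2, they are thus spermatid transcripts found in Sertoli-like barcodes. Neither call was kept among Sertoli-like barcodes with at least 1000 UMIs. Library depth was lower in the nicotine mice, and its part in these calls was not tested.

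Along the germ-cell order the list genes fell on both sides of the members. Crem, the activator named above, peaked at 36.25% of the order, ahead of all 5 members' steep rises. That position lay in a stretch of low depth, with a median of 1917.5 UMIs per barcode, against 16288.5 at 48.75%. The Crem peak was not read again without low-UMI barcodes. The linker histone Hils1 peaked at 58.75% with a level of 36.5, Phf7, a histone reader and ubiquitin ligase, at 61.25% and Hmgb4 at 66.25% with 56.8. H1fnt peaked at 71.25% with 25.5 and the histone variant H2al2a at 78.75% with 30.2. Ybx2, a protein that stores spermatid RNA, peaked at 78.75%, and Tssk6, a kinase of late spermatids, at 91.25% with 70.0. Thus Hils1 and Hmgb4 peaked near or before the transition protein genes, and Tssk6 after Prm2.

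The genes whose profiles over the 40 bins were most like those of the members are given by Pearson's r of log2 levels, as a description, since neighbouring bins share barcodes of similar depth. For Tnp1 they were Tex37 (0.990), Tfam (0.986), which encodes a mitochondrial DNA packaging protein, and Tstd3 (0.984). Tnp2 shared Tfam (0.994) and Tstd3 (0.989) with it and added Cstl1 (0.990), and the 2 transition protein genes had r = 0.992 with each other. For Prm1 they were Klk1b8 (0.996), a kallikrein, Paqr5 (0.994), a membrane progestin receptor, and Gm34035 (0.992). Prm2 was matched by 1700029B22Rik (0.998), Oxct2b (0.998), a ketone body enzyme of spermatids, and 1700020A23Rik (0.997). Prm3 was matched by Gm34263 (0.992), Gm15756 (0.989) and Pkib (0.987), an inhibitor of protein kinase A. Prm2 and Prm3, neighbours on chromosome 16, had r = 0.699, the lowest of any pair of members.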

How the data were processed

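The deposited values are UMI counts per gene and barcode, which the authors produced using Cell Ranger 7.2.0 with GRCm38 (mm10), per the submitters' processing notes; they were not normalized. Barcodes with at least 500 UMIs, 250 genes and at most 20% mitochondrial UMIs were kept. Doublets were scored with Scrublet in scanpy 1.11.5 and removed by rank at 0.8% per 1000 barcodes (8.62% to 9.76% per library), because Scrublet's own threshold called at most 0.0082% in 3 libraries. Clusters (2000 variable genes, 30 components, 15 neighbours, Leiden resolution 1) and pseudotime left out the 5 members. Names needed at least 3 markers at a fold of 1.5 in 10% of barcodes. Barcodes in the order had at least 1000 non-member UMIs and lay in 40 bins. Members, gene lists and tests were chosen with earlier results of these data known, and the naming rule and the peak and fall measures after the clusters and curves were seen. Classes were rebuilt from the counts and may differ from the study's.

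Sums of counts for each mouse, class or order segment were tested in edgeR 4.0.16 (TMM, filterByExpr, robust quasi-likelihood, n = 3 per group, adjusted p under 0.05 over all genes, at least 20 barcodes per mouse), with DESeq2 1.42.0 in R 4.3.3 as an alternative, and the fits were tested on simulated data. CPM was computed from these sums. Other values were compared by two-sided exact permutation over mice. Named genes were the 5 members, for each the 3 genes most like it among 4585 reaching a level of 1 (pseudocount 0.1 on log2), and the fixed list. Macrophage-like barcodes entered no gene test. The alternatives were other normalizations and filters, a replicate block, other orders, bins and scales, doublets left in and mice left out.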

Additional observations from a re-analysis of the deposited data

How the results depend on the processing

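The count of 8 member pairs with 1 sign of the 50% rise gap became 7 to 9 under the settings tried and was 8 without any 1 mouse. The positions themselves moved by over 1 SD in 34 of 50 comparisons with other settings and in 0 of 30 without 1 mouse. The 1 member call over the classes became 5 with no filter on low counts, 2 with DESeq2, 0 among barcodes with at least 1000 UMIs, 8 without both mice numbered 2 (chosen after seeing the data) and 0 to 6 without 1 mouse. Of all gene tests over the classes, 0.535% were called with no filter, 0.394% with DESeq2 and 0.181% at 1000 UMIs. Without both mice numbered 2 the share was 0.0813%, and without 1 mouse it was 0.0338% to 1.07%. The 0 calls over the segments of the order became 3 with no filter, 3 without both mice numbered 2 and 0 to 4 without 1 mouse. Of all gene tests there, 0.213%, 0.19% and 0.0308% to 0.614% were called in the same settings. Nothing about the members is read from these counts. Mice of the same number correlated at -0.05, 0.37 and 0.03 in their deviations from the group means. Mice of different numbers correlated at -0.32 to 0.31. The labels state no pairing, and so few correlations cannot decide whether the numbers pair the mice. With the number as a replicate block the member calls were 8 over the classes and 7 over the segments of the order, where 0.533% and 0.789% of all gene tests were called, against 0.184% and 0.0203% without the block, and the whole-library log2 changes were 0.15 for Tnp1, 0.13 for Tnp2, 0.10 for Prm1, 0.03 for Prm2 and 0.14 for Prm3. For Sertoli-like barcodes all genes called numbered 10, and 60 with no filter, 132 with the block, 6 with DESeq2, 19 with doublets left in and 0 at 1000 UMIs. For whole libraries the number was 58, and 140 with no filter, 178 with DESeq2, 128 with doublets left in, 0 in spermatid classes alone and 0 to 48 without 1 mouse.

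No direction of a whole-library change was stable. Without 1 mouse the log2 change ranged from -0.19 to 0.46 for Tnp1, -0.092 to 0.39 for Tnp2, -0.25 to 0.38 for Prm1, -0.14 to 0.23 for Prm2 and -0.16 to 0.38 for Prm3. Without both mice numbered 2 it was -0.015 for Prm1 and -0.056 for Prm2, and the log2 difference of Tnp2 to Tnp1 was 0.016. Without 1 mouse the log2 ratio difference ranged from -0.25 to 0.16 for Prm2 to Prm1, -0.14 to 0.14 for Tnp2 to Tnp1 and -0.049 to 0.32 for Prm3 to Prm2. The log2 change of the 5 members together ranged from -0.51 to 0.18 in Leydig-like, -0.55 to 0.072 in stromal-like and -0.41 to 0.070 in early spermatocyte-like barcodes, and with doublets left in it was 0.27 in Leydig-like and 0.079 in stromal-like ones. None of these passed a test in the first place, and the cause was not tested. With 3 mice per group an exact permutation test cannot go below 0.1.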
